A study of Arabidopsis thaliana with 26 samples.

Results

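AT3G15450, AT4G27450, AT5G19120 and AT2G20670 are 4 Arabidopsis thaliana genes whose transcripts are known to accumulate in darkness and sugar shortage. They were chosen by their measured falls in cold or their high levels in the group labelled 24f, so cold and 24f values are given below as a description, with no test. They make up 4 of 13286 genes named by a probe set that lists 1 locus. Each is read by 1 probe set that names no other locus. All 4 were low on all 8 cold arrays and high in 24f. Between the groups labelled 03f and 00f, AT5G19120 rose and AT2G20670, which is dim in 03f, fell. Such changes were common, with 30.3% of tested probe sets at a limma adjusted p under 0.05 there. Differences between the 4 genes were not tested.

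When carbon runs short, plants activate the SnRK1 kinase, and a set of transcripts rises that includes genes for the breakdown of amino acids and stored reserves, while sugars lower the same transcripts. AT3G15450 and AT4G27450 encode aluminium-induced proteins with YGL and LRDR motifs, a small family. AT5G19120 encodes a protein of the aspartyl protease family that includes the carrot extracellular dermal glycoprotein EDGP. AT2G20670 encodes a protein with a domain of unknown function, DUF506. No group carries darkness or sugar shortage as its labelled treatment, so the starvation name rests on that background and not on these samples.

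RNA was measured on 26 Affymetrix ATH1 arrays, 2 for each of 13 groups, from all aerial tissue of plants at growth stage 1.14, with 18 plants pooled per sample. The lines sf6, sf3 and sf2, mutants made in Columbia-0 with the mutagen EMS, and wild type (wt) were each sampled after 24 h at 4 °C under continuous light (cold) and untreated (control). Shoots of sf6 and wt were also excised and dried for 2 h in a dry air flow at 20 to 22 °C (drought). The plants behind these 20 arrays grew in continuous light on agar with diluted Murashige-Skoog salts, at 100% humidity and 21 °C. Of the other 6 arrays, which come from plants in compost treated with the insecticide Intercept at 4 °C, 70% humidity and 9 h of light with 15 h of dark, the labels give the codes 00f, 03f and 24f and no genotype or meaning of the code. Each mutant is 1 line, and compost groups were tested only against each other.

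Values are the authors' deposited intensities, a linear brightness scaled to the same trimmed mean of 100.01 on every array, with array medians between 38.2 and 44.4. Log2 changes are of intensity plus 16, which understates changes of dim genes, and p-values are limma's with Benjamini-Hochberg adjustment over the 17059 probe sets tested; all 4 genes passed the filter on dim probe sets in both growth regimes, and a call is an adjusted p under 0.05. Whether both arrays of a group stem from plants raised independently is not stated, and p-values therefore cover the scatter of these samples, part or all of which may be technical. The 2 arrays of a group correlated at 0.983 to 0.992 over all probe sets. In whole shoots, fewer cells of a type and less RNA per cell cannot be told apart.

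Leaf and root marker lists were read for the makeup of the samples. Of 8 leaf markers, 3 were measured (RCA, LHCB4.1 and LHCB4.2), and their summed intensity lay between 4831 and 7103 on cold arrays, 7734 and 9674 on drought arrays, 8073 and 9605 on control arrays, and 4975 and 9386 on compost arrays. Of 7 root markers, 2 were measured (PYK10, a glucosidase of roots and hypocotyls, and AT5G17820), and their sum lay between 819.8 and 1098 on cold arrays, 905 and 1245 on drought arrays, 1313 and 1683 on control arrays, and 18.5 and 131 on compost arrays, where 24f held 131 and 92.1 against 26 and 22.1 in 00f. No measured marker was at 0. Both sums are lower in cold than in control, and both are higher in 24f than in 00f, as the 4 genes are, the leaf sum at 7019 and 9386 against 6649.5 and 6029; their part in the results was not tested. None of 5 flower markers was measured.

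**Figure D1:**
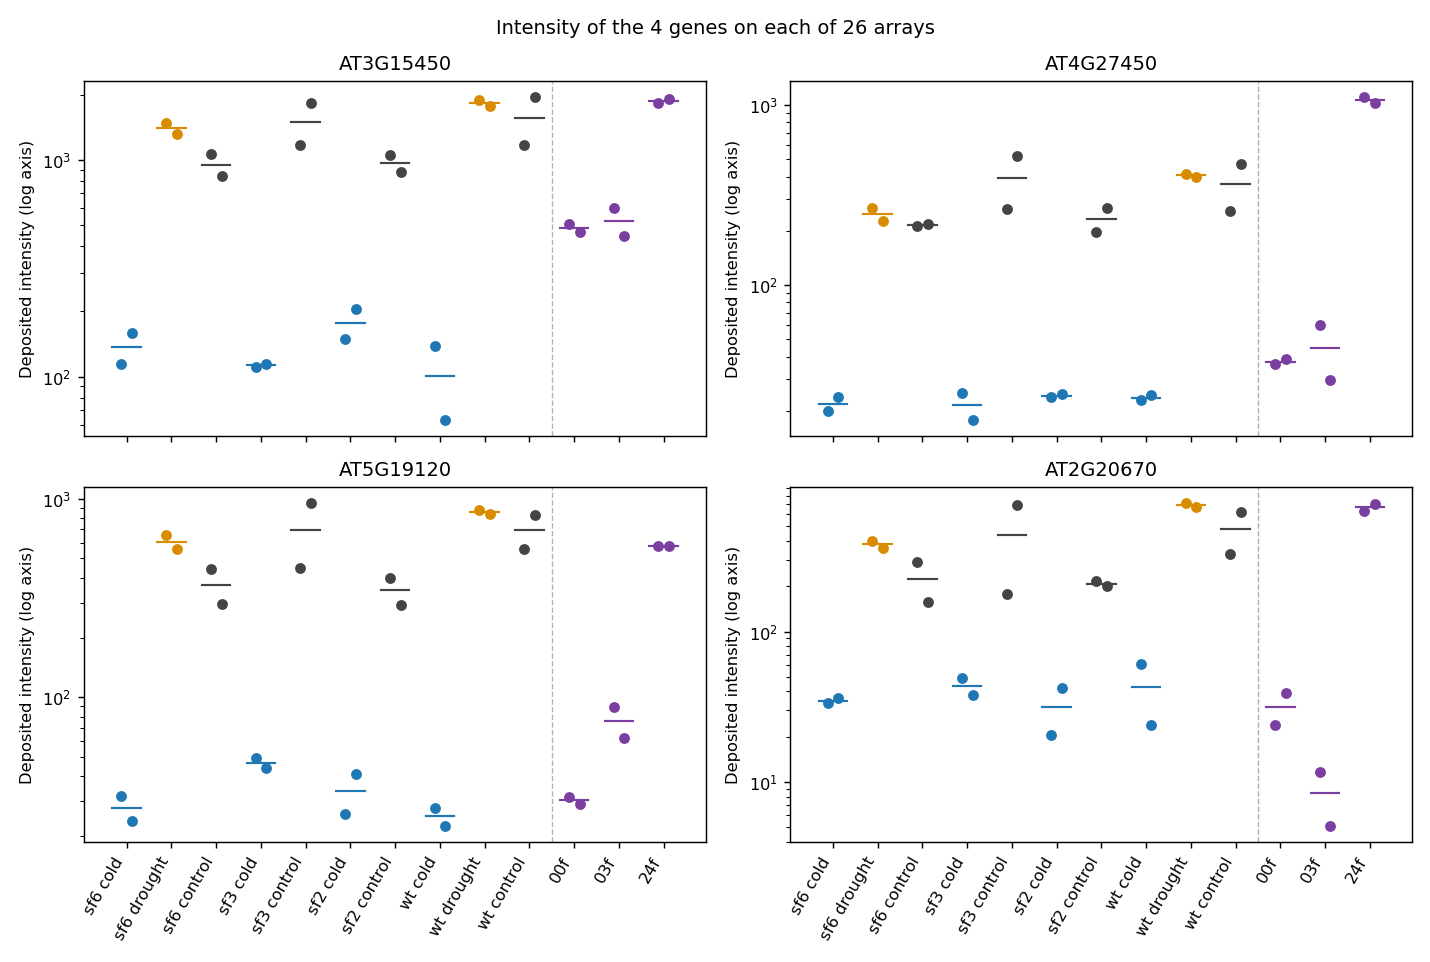
Deposited intensity (log axis) of the 4 genes on each array, with 2 points and a line at the mean for each of the 13 groups; the dashed line separates agar from compost groups. Cold arrays lie at the bottom of the agar groups in every panel, between 62.8 and 205.8 for AT3G15450 and between 17.7 and 25.1 for AT4G27450.

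AT3G15450, of the aluminium-induced YGL and LRDR family, stood in cold at the 60.7th to 84.9th percentile of its arrays. Its intensity was 114 and 159.5 in sf6 cold, 111 and 114 in sf3 cold, 149 and 206 in sf2 cold, and 138 and 62.8 in wt cold. In control it was 1062 and 837 in sf6, 1169 and 1834 in sf3, 1055 and 876 in sf2, and 1167 and 1944 in wt. Cold and control arrays did not overlap in any line for any of the 4 genes, and 40.4%, 37.1%, 38.7% and 40.3% of tested probe sets lay lower in this way in sf6, sf3, sf2 and wt. For AT3G15450 the mean in cold was 14.4% of control in sf6, 7.50% in sf3, 18.4% in sf2 and 6.45% in wt.

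AT4G27450, of the same family, varied little among cold arrays. It read 20.0 and 23.7 in sf6 cold, 25.1 and 17.7 in sf3 cold, 23.7 and 24.8 in sf2 cold, and 22.9 and 24.4 in wt cold. Control arrays gave 212 and 219 in sf6, 264 and 519 in sf3, 196 and 268 in sf2, and 257 and 467.5 in wt. All 8 cold arrays lay within a narrow band below the array medians, and the mean in cold was 10.1% of control in sf6, 5.46% in sf3, 10.4% in sf2 and 6.53% in wt.

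AT5G19120, the aspartyl protease family gene, read 31.8 and 23.8 in sf6 cold, 49.6 and 44.3 in sf3 cold, 26 and 41.2 in sf2 cold, and 27.8 and 22.5 in wt cold. In control its intensity was 444 and 294 in sf6, 446 and 952.5 in sf3, 401 and 290.1 in sf2, and 557 and 829 in wt. The mean in cold was 7.53% of control in sf6, 6.71% in sf3, 9.73% in sf2 and 3.63% in wt, again with no overlap.

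AT2G20670, the DUF506 gene, had the largest standard error of a log2 change in the agar fit, 0.45 against 0.25 to 0.28. In compost that of AT4G27450 was larger, 0.19 against 0.18. Within sf2 control, sf6 cold and sf6 drought the arrays lay closest together for AT2G20670 on the log2 scale. AT2G20670 read 33.3 and 36.3 in sf6 cold, 49.4 and 37.9 in sf3 cold, 20.6 and 42.0 in sf2 cold, and 61.1 and 23.9 in wt cold. In control it was 291 and 157 in sf6, 178 and 696 in sf3, 216 and 201 in sf2, and 330.2 and 626 in wt. The lowest agar array outside cold was 2.57 times the highest cold array for this gene, against 4.07 times for AT3G15450, 5.85 times for AT5G19120 and 7.82 times for AT4G27450.

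On the log2 scale the cold changes of AT3G15450 were -2.67 in sf6, -3.53 in sf3, -2.35 in sf2 and -3.79 in wt (SE 0.28 each). Those of AT4G27450 were -2.61, -3.38, -2.61 and -3.20 in the same order of lines (SE 0.25). AT5G19120 changed by -3.11, -3.41, -2.87 and -4.08 (SE 0.28), and AT2G20670 by -2.18, -2.65, -2.28 and -3.09 (SE 0.45). All 4 genes were at least 2-fold lower in every line, where 5.49% of tested probe sets were at least 2-fold lower in sf6, 5.69% in sf3, 4.71% in sf2 and 6.57% in wt; since cold falls chose the genes, nothing is read from that count. The median change of all tested probe sets in wt cold was -0.05 with the deposited scaling and 0.05 with median scaling, and the 4 genes' changes relative to the deposited median were -3.74, -3.14, -4.03 and -3.03.

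The falls in sf6 and sf2 were smaller than in wt for all 4 genes. The sf6 change minus the wt change was 1.12 for AT3G15450, 0.58 for AT4G27450, 0.97 for AT5G19120 and 0.91 for AT2G20670. For sf2 these differences were 1.44, 0.59, 1.22 and 0.80, and for sf3 they were 0.26, -0.18, 0.67 and 0.44. Standard errors of the differences were 0.40 for AT3G15450, 0.36 for AT4G27450, 0.39 for AT5G19120 and 0.63 for AT2G20670. Because these differences are built from the cold contrasts that chose the genes, they carry no test. All of them use the same wt control and wt cold arrays, so genes and lines are not separate support. The same limits hold with 1 array left out at a time. The differences then stayed above 0 in sf6 and sf2 for all 4 genes, at lowest 0.64, 0.17, 0.68 and 0.43 in sf6. In sf2 the lowest were 0.95, 0.17, 0.94 and 0.33. The lowest came without wt control array 2 for AT4G27450 and for AT5G19120 in sf2, without sf6 control array 2 for AT5G19120 in sf6, and without wt cold array 2 for AT3G15450 and AT2G20670. The sf3 count of 3 genes with a smaller fall than wt was 1 (AT5G19120) without wt control array 2, without sf3 control array 1 or without wt cold array 2.

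In sf6 and sf2 these differences stood mostly in the control arrays for AT4G27450, AT5G19120 and AT2G20670. For AT3G15450 they stood in both control and cold arrays. In cold, sf6 differed from wt by 0.45 for AT3G15450, -0.07 for AT4G27450, 0.09 for AT5G19120 and -0.13 for AT2G20670. For sf2 the cold values were 0.80, 0.02, 0.26 and -0.27. In control the 4 genes were all lower in sf6 than in wt, by log2 changes of -0.67 for AT3G15450, -0.65 for AT4G27450, -0.88 for AT5G19120 and -1.03 for AT2G20670 (limma adjusted p = 0.401, 0.356, 0.242 and 0.413). No gene was called, where 0.0293% of tested probe sets were; all 4 had an unadjusted limma p under 0.05, as did 10.7% of all tested probe sets. Both sf6 control arrays lay below both wt control arrays for all 4 genes, a pattern that 24.1% of probe sets showed. In sf2 control the changes against wt control were -0.64, -0.56, -0.96 and -1.07 in the same order of genes (adjusted p = 0.493, 0.504, 0.204 and 0.451). Again no gene was called (0.111% of all), all 4 had an unadjusted p under 0.05 (9.24% of all), and the arrays did not overlap for 3 of 4 genes, the exception being AT4G27450, against 21.6% of probe sets lying lower in this way. The sizes hang on which wt control array is kept. Without wt control array 2 the changes were -0.30, -0.24, -0.60 and -0.59 in sf6 control and -0.28, -0.15, -0.68 and -0.63 in sf2 control. Without wt control array 1, whose title is marked repeat1, they were larger in size, at -1.03, -1.06, -1.16 and -1.48 in sf6 control. In sf2 control they then lay between -1.52 and -0.98.

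In sf3 control the genes differed from wt control by -0.04, 0.09, -0.06 and -0.34 (adjusted p between 0.946 and 0.991), with 95% intervals of -0.64 to 0.56, -0.44 to 0.62, -0.64 to 0.53 and -1.29 to 0.60. None of the 4 was called by limma at this threshold, where 0.123% of probe sets were, or had an unadjusted p under 0.05, where 6.65% had one, and the arrays overlapped for every gene. The 3 comparisons share the wt control arrays, of which array 2 was the higher for all 4 genes. Without wt control array 2 and sf3 control array 2, an alternative chosen after the values were seen, no gene was called in any of the 3.

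Between cold-treated lines, AT3G15450 was 0.80 higher in sf2 cold than in wt cold (SE 0.28, adjusted p = 0.305), with both sf2 arrays above both wt arrays, and 24% of probe sets lay higher in this way. AT5G19120 was 0.62 higher in sf3 cold (SE 0.28, adjusted p = 0.834), again with no overlap, against 14.5% of probe sets. The other 10 values lay between -0.27 and 0.45 with overlapping arrays, and limma called 0 of 4 genes in each line, where 0.0117% of probe sets were called in sf6, 0.0234% in sf3 and 0.117% in sf2. At an unadjusted p under 0.05 there were 0 of 4 in sf6, 1 in sf3 and 1 in sf2, where 6.85%, 5.87% and 11.1% of all probe sets had one. These comparisons, like those between controls, use the same cold and control arrays as the contrasts that chose the genes, so they are not independent of that choice.

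**Figure D2:**
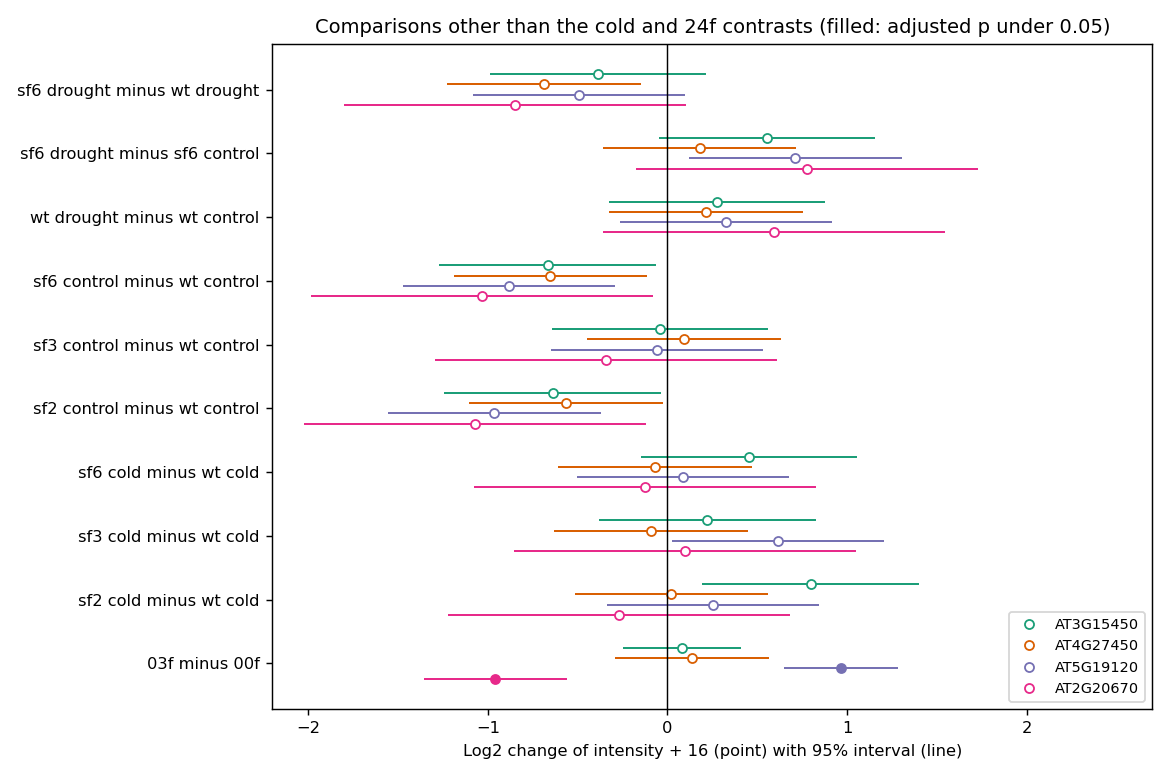
Log2 change of each gene (points, with 95% intervals as lines) in 10 comparisons of group means other than the cold and 24f contrasts; filled points have an adjusted p under 0.05. Only AT5G19120 (0.97) and AT2G20670 (-0.96) in 03f against 00f are filled, and the 4 genes lie below 0 together in sf6 drought against wt drought, in sf6 control and in sf2 control.

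Excision and 2 h of drying left the 4 genes high. AT3G15450 read 1477 and 1311 in sf6 drought and 1887 and 1767 in wt drought, and AT4G27450 read 268.5 and 225 in sf6 drought and 413.5 and 399 in wt drought. AT5G19120 gave 655 and 555 in sf6 drought and 874 and 838 in wt drought, and AT2G20670 gave 398 and 361 in sf6 drought and 716.5 and 676.5 in wt drought. Each wt value is above each sf6 value of the same gene, and the 2 drought arrays of a line lay closer together than the 2 wt control arrays.

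Against control, drought changed the genes in sf6 by 0.55, 0.18, 0.71 and 0.78 for AT3G15450, AT4G27450, AT5G19120 and AT2G20670 (limma adjusted p = 0.326, 0.772, 0.177 and 0.397), and in wt by 0.27, 0.22, 0.33 and 0.60 (adjusted p = 0.618, 0.669, 0.531 and 0.468). All 8 values are above 0, but without wt control array 1 those in wt were -0.09 for AT3G15450 and -0.20 for AT4G27450. The 95% intervals reached 1.72 in sf6 and 1.54 in wt for AT2G20670. None was called, where 3.91% of probe sets were called in sf6 and 9.79% in wt. At an unadjusted p under 0.05 there was 1 of 4 genes in sf6 (AT5G19120) and 0 in wt, where 17.7% and 23.5% of all probe sets had one. Drought arrays lay wholly above control for 4 of 4 genes in sf6 (25.7% of probe sets) and for AT5G19120 and AT2G20670 in wt (25%). With only the sf6 drought and sf6 control arrays in the fit, AT3G15450 (limma adjusted p = 0.034) and AT5G19120 (0.0397) were called. The share of all probe sets called in that fit is not given, and 3.91% is not its background. Without wt control array 2 and sf3 control array 2, the wt change of AT4G27450 was 0.63. These drought comparisons use the same control arrays as the cold contrasts that chose the genes, so they are not independent of that choice.

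The sf6 response to drought minus the wt response was 0.28 for AT3G15450, -0.04 for AT4G27450, 0.39 for AT5G19120 and 0.18 for AT2G20670 (SE 0.40, 0.36, 0.39 and 0.63; limma adjusted p between 0.914 and 0.994). None was called, 0 of 4 had an unadjusted p under 0.05 (6.44% of all probe sets), and 0% of tested probe sets were called. This difference, too, uses the control arrays of the cold contrasts that chose the genes. Set directly against wt drought, sf6 drought was lower by log2 changes of -0.39, -0.69, -0.49 and -0.85 (adjusted p = 0.824, 0.593, 0.75 and 0.733). None was called (0.00586% of all probe sets), 1 of 4 had an unadjusted p under 0.05 (AT4G27450; 7.20% of all), and all 4 had both sf6 arrays below both wt arrays, as 21.3% of probe sets did. The 0.00586% belongs to the fit of 20 agar arrays, and no such share is given for a fit of only these 4 drought arrays. In that smaller fit AT4G27450 (limma adjusted p = 0.0166) and AT2G20670 (0.00832) were called. Beside these values, the root marker sum was 1245 on both sf6 drought arrays, against 989.7 and 905 on the wt drought arrays; its part in the difference was not tested.

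In compost all 4 genes were highest in 24f, but they did not all change in the same direction between 00f and 03f. AT3G15450 read 506 and 466 in 00f, 597 and 443 in 03f, and 1828 and 1906 in 24f. AT4G27450 read 36.2 and 38.8 in 00f, 59.6 and 29.7 in 03f, and 1103 and 1019 in 24f, the highest of its 13 groups with no overlap with the next, wt drought. AT5G19120 read 31.6 and 29.2 in 00f, 89.0 and 62.2 in 03f, and 575 and 577 in 24f. AT2G20670 read 24.0 and 39.1 in 00f, 11.7 and 5.1 in 03f, and 633 and 705 in 24f.

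Between 03f and 00f, AT5G19120 rose by 0.97 (SE 0.14, adjusted p = 0.000459) and AT2G20670 fell by 0.96 (SE 0.18, adjusted p = 0.00214). AT3G15450 (0.08, SE 0.15, adjusted p = 0.707, 95% interval -0.24 to 0.41) and AT4G27450 (0.14, SE 0.19, adjusted p = 0.633, 95% interval -0.29 to 0.56) had no call, so 2 of 4 were called where 30.3% of all probe sets were. The median change of all probe sets here was -0.13 with the deposited scaling and 0.01 with median scaling. Relative to the deposited median, AT5G19120 changed by 1.10 and AT2G20670 by -0.83, and both kept their call and direction with median scaling. The AT2G20670 intensities in 03f stood at the 24.6th and 17.4th percentile of their arrays, so its size hangs on the number added before the log: between -1.85 with 1 added and -0.40 with 64 added. AT5G19120 gave 1.27 and 0.56 under the same settings. With all 26 arrays in 1 fit AT2G20670 lost its call (adjusted p = 0.0846), and without 03f array 2 AT4G27450 gained one (0.50, adjusted p = 0.044).

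The 24f values, which helped to choose the genes, were 1.91 above 00f on the log2 scale for AT3G15450, 4.33 for AT4G27450, 3.67 for AT5G19120 and 3.87 for AT2G20670. Above 03f they were 1.83, 4.19, 2.71 and 4.82. In ratios of mean intensities, 24f stood at 3.85 times 00f for AT3G15450, 28.3 times for AT4G27450, 18.9 times for AT5G19120 and 21.2 times for AT2G20670. At least 2-fold higher were 4 of 4 genes in both, where 5.5% of probe sets were so against 00f and 6.71% against 03f, and these comparisons share the 24f arrays.

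Ordered by level over the 13 groups, AT3G15450 ran from 24f (mean 1867) to wt cold (100.4), an 18.6-fold range. AT4G27450 ran from 24f (1061) to sf3 cold (21.4), 49.6-fold, and AT5G19120 from wt drought (856) to wt cold (25.2), 34.0-fold. AT2G20670 ran from wt drought (696.5) to 03f (8.4), where it is too dim for a fold to be read. Adjoining groups in these orders had overlapping arrays in 9 of 12 steps for AT3G15450, AT4G27450 and AT2G20670 and in 7 of 12 for AT5G19120, so most neighbouring ranks are not apart beyond their spread. The 4 cold groups were the lowest agar groups for each gene. Set side by side and not tested across growth regimes, 00f read above every cold array for AT3G15450 and AT4G27450 and among the cold arrays for AT5G19120 and AT2G20670.

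Group means of the 4 genes followed each other with Pearson correlations of 0.84 (AT3G15450 with AT2G20670) to 0.95 (AT4G27450 with AT5G19120) over the 13 groups, which share arrays and were partly used to choose the genes. The differences between the 2 arrays of a group had the same sign for a pair of genes in 7 to 11 of 13 groups. In wt control, array 2 exceeded array 1 by 0.73 for AT3G15450, 0.82 for AT4G27450, 0.56 for AT5G19120 and 0.89 for AT2G20670 on the log2 scale, and at least 98.1% of tested probe sets had a lower difference than each. In sf3 control the excess was 0.64, 0.94, 1.07 and 1.87, with at least 97.4% of probe sets lower. In wt cold, array 2 was lower by 0.97 for AT3G15450 and by 0.95 for AT2G20670, but it was 0.05 higher for AT4G27450. In sf2 control, array 2 was 0.42 higher for AT4G27450 and lower for the other 3. Over the 13 groups these within-group differences correlated between genes at 0.57 to 0.90, with AT5G19120 and AT2G20670 most alike. The titles of wt control array 1 and sf6 drought array 2 are marked repeat1, with no word on what was repeated. Beyond that mark, labels give no cause for a difference between the 2 arrays of a group, and its part was not tested.

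**Figure D3:**
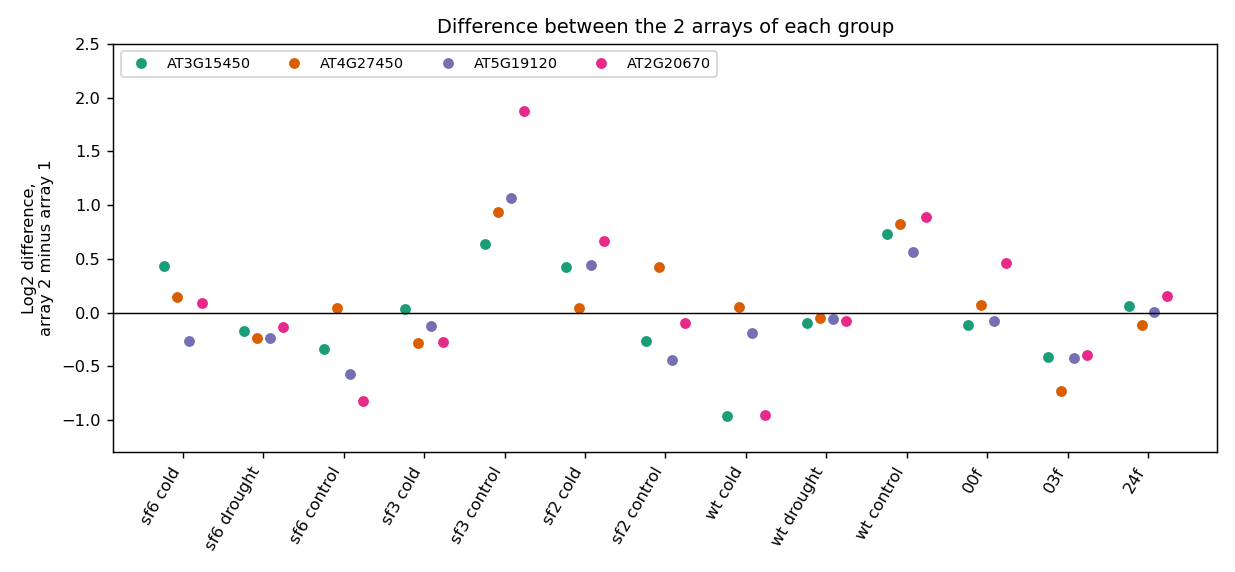
Log2 difference between array 2 and array 1 of each group for the 4 genes. All 4 points lie above 0.5 in wt control and sf3 control and within 0.1 of 0 in wt drought.

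The nearest genes on the chromosome, in the order of RefSeq's TAIR10.1 annotation, did not share the pattern where they could be read. AT3G15460, whose annotated model overlaps the end of AT3G15450 and which encodes a BRIX-domain ribosome biogenesis protein, was 1.52 higher in wt cold than in wt control and 1.59 lower in 24f than in 00f (log2 change -1.59, limma adjusted p = 1.13e-05). PORB, a protochlorophyllide reductase gene whose model overlaps AT4G27450, changed by -0.30 in wt cold (adjusted p = 0.306). AT5G19130, next to AT5G19120, changed by 0.05 (adjusted p = 0.795). The other neighbours were dim or are not listed alone on a probe set.

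Relatives of the YGL and LRDR genes were measured for all 5 of the family. AILP1 fell in cold by 0.93 in sf6, 1.06 in sf3, 0.76 in sf2 and 1.16 in wt, and read 589 and 463 in wt cold against 1179 and 1188 in wt control (limma adjusted p = 1e-05). AT5G43830 fell by 1.08, 1.07, 0.89 and 1.15 (adjusted p at most 1.9e-05). AT3G22850 did not fall: it rose by 0.38 in sf3 and 0.57 in sf2 (adjusted p = 0.0158 and 0.00103), and changed by 0.08 in sf6 and 0.07 in wt with no call. So 2 of the 3 relatives outside the chosen pair were lower in each line, where 25.9%, 24.2%, 22.9% and 26.3% of probe sets were called lower in sf6, sf3, sf2 and wt. The same 2 were higher in 24f than in 00f, AT5G43830 by 0.86 (adjusted p = 0.000207) and AILP1 by 0.67 (adjusted p = 0.0032), against 20.9% of probe sets called higher, and AT3G22850 changed by 0.04 (adjusted p = 0.85).

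Of the 6 EDGP-like aspartyl protease genes listed, 4 were measured, and the 3 beside AT5G19120 were dim. AT5G19100 read 37.5 and 51.3 in wt cold against 43.9 and 44.5 in wt control (adjusted p = 0.981). AT5G48430 changed by -0.23 in wt cold (adjusted p = 0.277) and fell by 0.53 in sf3 cold (adjusted p = 0.0165). AT5G19110, the immediate neighbour of AT5G19120, was below the filter on agar and read between 15.4 and 78.0 in compost, where 24f against 00f gave -0.34 (adjusted p = 0.385).

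In the DUF506 family, 6 of 11 genes were measured and 4 beside AT2G20670 were tested. AT3G07350, AT2G38820 and AT3G22970 fell in cold in all 4 lines, in wt by 1.57, 1.53 and 1.06 (adjusted p = 5.79e-05, 7.36e-06 and 0.000365), and AT2G39650 rose slightly in sf3 (0.34, adjusted p = 0.0329) and wt (0.36, adjusted p = 0.0235). So 3 of 4 were called lower in each line, where 25.9%, 24.2%, 22.9% and 26.3% of probe sets were in sf6, sf3, sf2 and wt. Called higher were 1 of 4 in sf3 and wt, where 20% and 20.7% of probe sets were. In wt drought AT2G39650 rose by 1.01 (109 and 94.8 in drought, 38.4 and 47.0 in control, adjusted p = 8.72e-05) and AT3G07350 by 0.93 (adjusted p = 0.0252), so 2 of 4 were called higher where 4.83% of probe sets were. Between 03f and 00f, AT3G07350, AT2G38820 and AT2G39650 rose (1.01, 0.60 and 1.11), where 11.5% of probe sets were called higher, and AT3G22970 fell, as AT2G20670 did, where 18.8% were called lower. AT3G22970 read 52.5 and 75.8 in 03f against 276 and 368 in 00f (log2 change -2.08, adjusted p = 2.18e-05). In 24f, 2 of the 4 tested relatives were called higher than in 00f and 0 lower, where 20.9% and 21.4% of probe sets were. AT1G12030 was below the filter in both regimes.

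**Figure D4:**
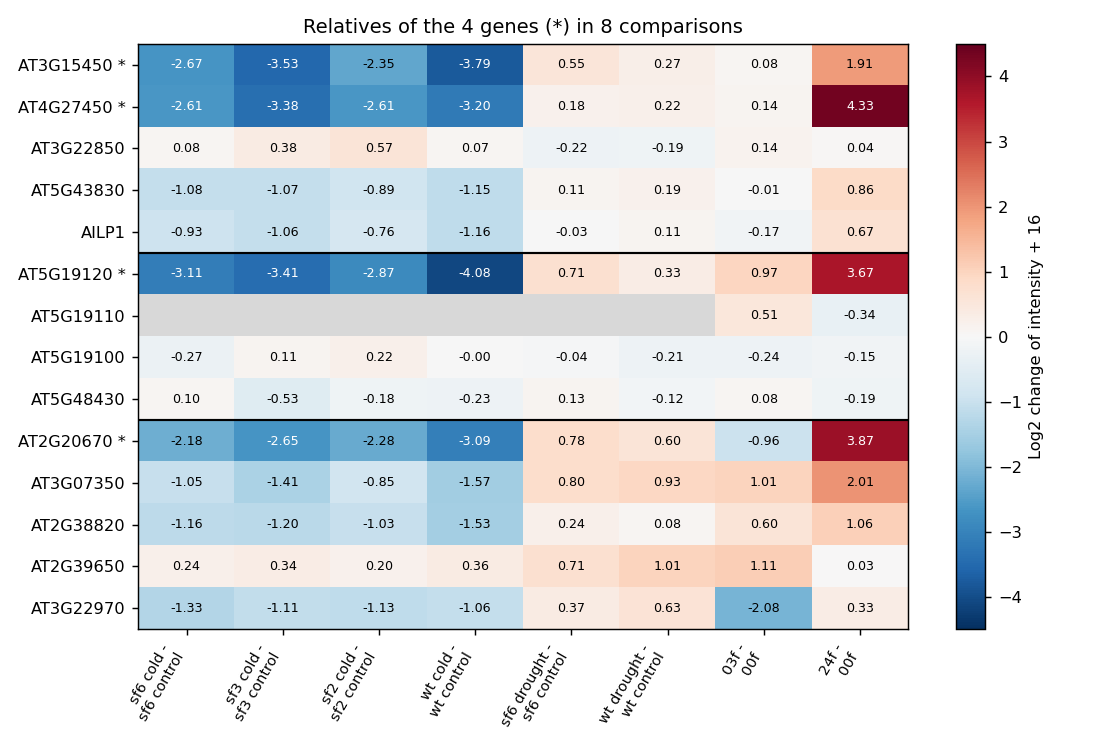
Log2 changes of the measured relatives of the 4 genes (marked with an asterisk) in 8 comparisons, with the YGL and LRDR family above, the EDGP-like genes in the middle and the DUF506 family below; grey cells were not tested. AT5G43830 and AILP1 share the direction of AT3G15450 and AT4G27450 in cold and in 24f, and AT3G22850 does not.

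Of 14 genes listed as raised by darkness or sugar starvation, 1 was measured alone on a probe set, the kelch F-box gene AT1G23390. It fell by 3.17 in wt cold (88.4 and 37.3 in cold, 647 and 662 in control, adjusted p = 1.95e-09) and rose by 0.89 in wt drought (adjusted p = 0.0104). Of all probe sets 26.3% were called lower in wt cold and 4.83% higher in wt drought. AT1G23390 was also called higher in 24f than in 00f, by 1.65, where 20.9% of probe sets were. In 03f it was called lower than in 00f, by 0.66, where 18.8% were. Of 7 genes for SnRK1 subunits, 3 were measured. AKINBETA1, a beta subunit, fell by 2.67 in sf6, 2.75 in sf3, 2.24 in sf2 and 3.10 in wt. It read 18.1 and 28.5 in wt cold against 262 and 388 in wt control (adjusted p = 4.94e-10). In 24f it read 437 and 357 against 56.1 and 53.1 in 00f, a rise of 2.54 (adjusted p = 3.3e-07), and 03f against 00f gave 0.22 (adjusted p = 0.21). The other 2, AT4G16360 and AT2G28060, gave between -0.43 and -0.14 in cold, and the number of subunit genes called lower was 1 of 3 in sf6, 3 in sf3, 2 in sf2 and 2 in wt. Of all probe sets 25.9%, 24.2%, 22.9% and 26.3% were called lower in the same order of lines, so the sf6 count is near the background.

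Genes for the breakdown of branched-chain amino acids and proline were measured for 7 of 11, and those called in cold were all lower: 5 in sf6, 5 in sf3, 5 in sf2 and 7 in wt, with medians of -0.67, -0.91, -0.53 and -1.38 against -0.06, -0.05, -0.02 and -0.05 for all probe sets, of which 25.9%, 24.2%, 22.9% and 26.3% were called lower. MCCA, a subunit of methylcrotonyl-CoA carboxylase in leucine breakdown, read 4.2 and 4.6 in wt cold against 152 and 329 in wt control (log2 change -3.56, adjusted p = 3.19e-08), and its wt control array 2 was the higher, as for the 4 genes. MCCB, the partner subunit, and IVD, isovaleryl-CoA dehydrogenase, fell by 1.64 and 1.59 in wt cold. Against 00f, 5 of 7 were higher in 24f, where 20.9% of all probe sets were, including MCCA by 2.02 and IVD by 1.87. MCCA did not go with the 4 genes in wt drought, where it read 102 and 95.1 against 152 and 329 in wt control (-1.07, adjusted p = 0.0271), one of 2 of the 7 called lower there, with ETFQO, where 4.96% of probe sets were.

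Of 8 genes listed as raised by sugar, 3 were measured: APL3 and APL4, large subunits of ADP-glucose pyrophosphorylase in starch synthesis, and DFR, dihydroflavonol reductase of anthocyanin synthesis. APL3 read 569 and 419 in wt cold against 18.5 and 28.1 in wt control (log2 change 3.69, adjusted p = 5.47e-09), and APL4 rose by 1.74 (adjusted p = 1.84e-05); both rose in all 4 lines, where 19.5% of probe sets were called higher in sf6, 20% in sf3, 19.8% in sf2 and 20.7% in wt. DFR rose by 0.71 in wt cold (adjusted p = 0.0243) and was not called in the mutants, so 3 of 3 were called higher in wt and 2 of 3 in each mutant. In drought DFR was lower than in control, by -1.01 in sf6 (adjusted p = 0.0286) and -0.89 in wt (adjusted p = 0.0297) on the log2 scale, where 1.78% of probe sets were called lower in sf6 and 4.96% in wt, and APL3 and APL4 had no call there. In 24f all 3 were lower than in 00f, where 21.4% of probe sets were called lower, by 1.72 for APL3, 0.79 for APL4 and 1.58 for DFR on the log2 scale, and between 03f and 00f none was called, where 30.3% of probe sets were, with 0 of 3 at an unadjusted p under 0.05, which 41.3% of probe sets had.

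**Figure D5:**
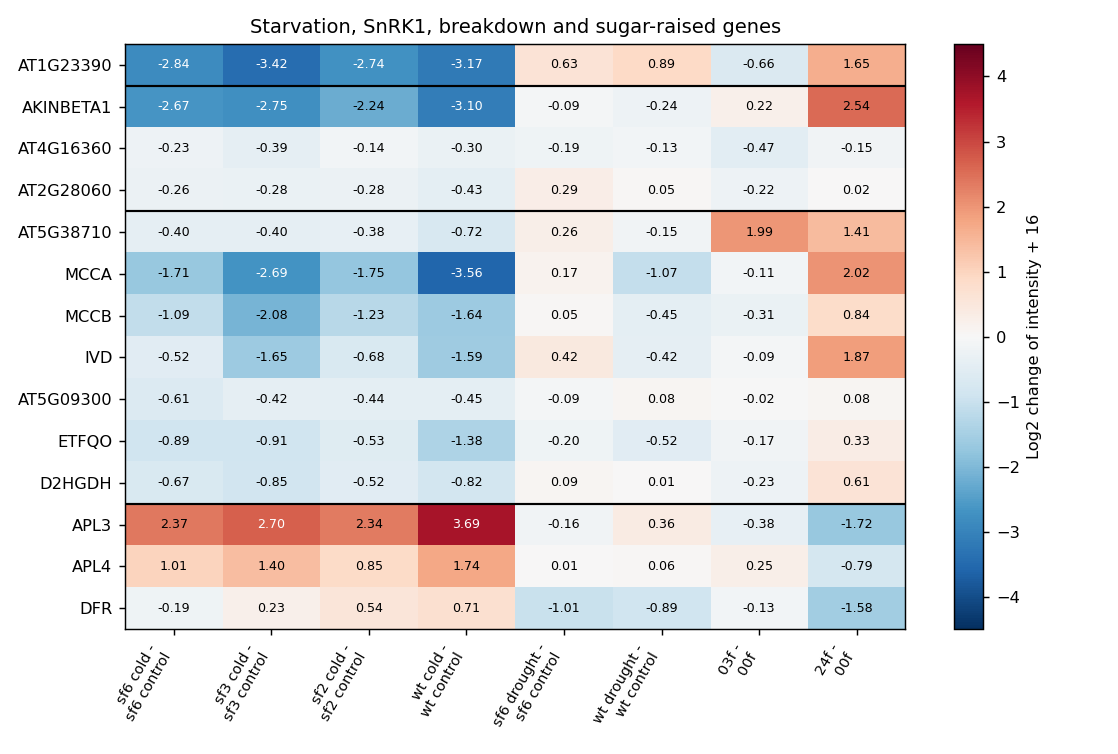
Log2 changes in the same 8 comparisons for the starvation gene AT1G23390, SnRK1 subunits, genes of branched-chain amino acid and proline breakdown, and sugar-raised genes, from top to bottom. AKINBETA1 and MCCA are low in cold and high in 24f, APL3 is the reverse, and most cells of the drought and 03f columns lie near 0.

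The genes most like each of the 4 were named by the Pearson correlation of group means over the 13 groups, across 9403 genes; the groups share arrays and 2 growth regimes, so the values describe a pattern only. For AT3G15450 they were AT1G56220 (0.99), a dormancy and auxin-associated family gene that read 136 and 60.6 in wt cold against 877 and 1178 in wt control, then AT3G15630, AT3G29240, AT1G55000 and AT5G19860 (0.98 to 0.99). For AT4G27450 they were AT5G45310, AT2G35820, AT5G56100, AT1G22890 and AT5G40450 (0.98 to 0.99). For AT5G19120 they were AT1G53560 (0.99), AT5G51170, AT1G49500, AT4G18975 and AT4G09830, and for AT2G20670 they were AT3G62650, the ethylene response gene RTE1, AT1G72160, AT1G76460 and AT5G51170 (0.97 to 0.98). None of the 4 was among the 5 most alike of another, the nearest being AT4G27450 at rank 50 for AT2G20670.

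The most opposite patterns were those of AT5G64730, AT1G69250 and AT1G23100 for AT3G15450 (-0.98 to -0.99), and of AT5G23250, AT1G55210 and AT5G20160 for AT4G27450 (-0.98 to -0.99). AT5G23250, which encodes a succinyl-CoA ligase subunit of the tricarboxylic acid cycle, read 271 and 341 in wt cold against 139 and 143.5 in wt control and 97.9 and 109.9 in 24f. For AT5G19120 they were AT1G15470, the pyruvate kinase gene AT5G08570 and SWEET13, a sucrose transporter (-0.98). SWEET13 read 365 and 358.5 in wt cold against 39.9 and 38.1 in wt control, and 303 and 303.5 in 00f. For AT2G20670 they were AT5G61240, MDH, a malate dehydrogenase, and AT3G14890 (-0.95 to -0.97).

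The remaining lists held few measured genes. Of 9 bZIP transcription factors of groups C and S1, 2 were measured, and their calls in cold differed between lines. bZIP44 rose by 0.82 in sf6 cold (limma adjusted p = 0.000302), and BZIP53 fell by 0.62 in wt cold (adjusted p = 0.00436). Called higher were 1 of 2 in sf6 and sf2 and 0 in sf3 and wt, where 19.5%, 19.8%, 20% and 20.7% of probe sets were. Called lower were 0 of 2 in sf6 and 1 in each of sf3, sf2 and wt, where 25.9%, 24.2%, 22.9% and 26.3% were. Of 8 leaf senescence genes 2 were measured, SAG29 and WRKY53, and SAG29, a sugar transporter gene of the SWEET family, rose by 1.92 in wt cold (adjusted p = 0.000357). Called higher in cold were 1 of these 2 in sf6, sf2 and wt and 0 in sf3. Of all probe sets 19.5%, 19.8%, 20.7% and 20% were called higher in that order of lines. Against 00f, 1 of the 2 was called higher and 1 lower in 24f, where 20.9% and 21.4% of probe sets were. None of 8 class II trehalose phosphate synthase genes was measured alone on a probe set.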

How the data were processed

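The intensity values are used as deposited by the authors: their trimmed mean (2% at each end) is 100.01 on every array, so they appear scaled to a common target, and the software is not given in the sources used here. The labels' protocols give RNA from whole aerial tissue hybridised to 26 ATH1 arrays. Of 22810 probe sets, 64 were controls and 13436 name 1 locus in the platform's table. From the intensities, log2(intensity + 16) was fitted with limma 3.58.1 in R 4.3.3 (group means, intensity trend), once over the 20 agar arrays and once over the 6 compost arrays. Probe sets with a mean under the 25th percentile were left out, leaving 17059 in each fit, with Benjamini-Hochberg adjustment over all of them. With 2 arrays a group, their number limits the precision. The fit was tested on simulated data. Genes, lists and comparisons were chosen with earlier results of these data known. Named genes are the 4, all measured relatives, the 5 most and 3 least alike, and up to 4 of each other list; chromosome neighbours were added after their values were seen. Same-numbered arrays deviated together weakly in compost (3 pairs, correlation 0.10 to 0.20). On agar the correlations went both ways (45 pairs, -0.25 to 0.24, median -0.01, 5 over 0.1). The main fits and their p-values use no pairing, and a replicate block is an alternative only. Alternatives were another added number (1 or 64), no filter, median and quantile scaling, array weights, a replicate block, other sets of arrays and each array left out.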

Additional observations from a re-analysis of the deposited data

How the results depend on the processing

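Of the alternatives run, 298 values of the counts of genes and 1126 of the single-gene values kept direction and call, or moved by less than 1 SD. Of the single-gene values 42 moved further, 41 turned sign, 6 gained a call and 1 lost it, and of the counts 3 moved by over 1.5 times, 3 went above 0 and 1 fell. All but 4 of the 42, which are lists of most alike genes, are sizes of cold or 24f changes, mostly with another number added before the log. Among the counts, wt drought against wt control gave 1 called gene without wt control 2 and sf3 control 2 (AT4G27450, 0.63), chosen after seeing the data. With only the groups compared, sf6 drought gave 2 called genes against sf6 control and 2 against wt drought. The share of all probe sets called in these fits is not given, so the counts have no background beside them. With all 26 arrays in 1 fit, 03f against 00f gave 1, and with 1 array left out at a time 2 to 3 (3 without 03f array 2). Leaving out 1 array at a time, the number of genes with a smaller cold fall in sf3 than in wt ranged from 1 to 4. The replicate block changed no call (03f against 00f, paired: AT5G19120 0.97, limma adjusted p = 0.000171; AT2G20670 -0.96, 0.00183). For these changes the cause was not tested.

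Signs turned only in changes with no call. Without both arrays whose titles are marked repeat1, wt drought gave -0.090 for AT3G15450 and -0.20 for AT4G27450, the difference of drought response gave 0.50 for AT4G27450, and sf3 control gave -0.32 for AT4G27450. Quantile normalization gave 0.019 for AT4G27450 in the difference of drought response, 0.0026 for AT3G15450 in sf3 control, -0.011 for AT4G27450 in sf2 cold against wt cold (-0.012 with median scaling) and -0.00014 for AT3G15450 in 03f. Without wt control 2 and sf3 control 2, AT3G15450 gave -0.085 and AT2G20670 -0.26 in the difference of drought response, and AT3G15450 0.0029 in sf3 control.

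With each array left out in turn, AT3G15450 ranged from -0.090 to 0.64 in wt drought, -0.085 to 0.64 in the difference of drought response, -0.40 to 0.32 in sf3 control, -0.030 to 0.94 in sf6 cold, -0.26 to 0.71 in sf3 cold and -0.13 to 0.29 in 03f. AT4G27450 ranged from -0.20 to 0.63, -0.45 to 0.38, -0.38 to 0.56, -0.14 to 0.0021, -0.23 to 0.052 and -0.23 to 0.50 in the same comparisons, and from -0.0055 to 0.049 in sf2 cold. AT5G19120 ranged from -0.59 to 0.48 in sf3 control and -0.045 to 0.22 in sf6 cold. AT2G20670 ranged from -0.26 to 0.63 in the difference of drought response, -1.28 to 0.59 in sf3 control, -0.60 to 0.35 in sf6 cold, -0.38 to 0.57 in sf3 cold and -0.74 to 0.21 in sf2 cold. Mutant cold values are against wt cold. Where 1 array of a group was left, it is assumed to vary like the other groups.

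In 03f against 00f, 1969 probe sets were called higher and 3202 lower, and 2611 higher and 1626 lower with median scaling. In wt cold the split was 3539 higher and 4493 lower, and 4521 higher and 3407 lower with median scaling. Promoter motifs and other probe sets of the 4 genes were not analysed here.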

Other observations

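The genes whose difference between the 2 arrays of a group most resembled that of the 4 genes, a search made after their values were seen, included SDP1, which encodes the lipase that starts the breakdown of storage oil. Over the 13 groups its array differences correlated with those of AT3G15450 at 0.84, AT5G19120 at 0.87 and AT2G20670 at 0.94, points that share arrays within each group. SDP1 read 26.7 and 17.4 in wt cold against 119 and 146 in wt control, 82.5 and 141 in sf3 control, and 158 and 138 in 24f, so its array 2 was the higher in wt control and sf3 control and the lower in wt cold, as for AT3G15450 and AT2G20670. For AT4G27450 the nearest was ATL8, a RING-type ubiquitin ligase gene, at 0.89.

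Over the 10 agar groups alone, the most alike genes differed from those over all 13 groups. Of the 5 named for each gene, AT1G56220 was again among the 5 for AT3G15450 and AT1G22890 for AT4G27450, and none of the 5 for AT5G19120 or AT2G20670. AT5G19120 was then among the 5 most alike of AT2G20670 (0.99), and AT2G38820, a DUF506 gene, was the most alike of AT5G19120.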
